A study of Mus musculus with 12 samples.

Results

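Loss of the chemokine receptor D6 in the non-diabetic kidney was examined by setting the 3 arrays of D6 mice against the 3 arrays of FVB mice, chosen by their source name from the 12 arrays of the series. D6 mice were homozygous for the D6 deletion and not diabetic, and FVB mice were not diabetic and had both copies of D6 intact. OVE-D6 mice were diabetic and homozygous for the deletion, and OVE mice were diabetic with intact D6, with 3 arrays each. All 4 groups were on the FVB background, ate standard chow and were killed at 6 months of age. Per the labels, the deletion came in C57BL/6 mice and had been bred into FVB over at least 10 generations, so D6 and OVE-D6 mice can carry C57BL/6 sequence around the deletion as well as the deletion itself. RNA came from frozen kidney, with 1 mouse per array. Nothing in the labels gives the litters, so p-values measure the spread between these mice alone. The values are deposited log2 probe-set values, and a difference of 1 between them is a 2-fold difference in signal.

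D6 is the protein of Ackr2. It belongs to the atypical chemokine receptors, which bind chemokines and carry them into the cell for destruction without the G-protein signal of a conventional receptor. D6 is best known on lymphatic endothelium, on some leukocytes and in placenta, and its ligands are inflammatory CC chemokines, the proteins that draw monocytes, macrophages and T cells into tissue. A kidney without D6 therefore lacks a route of chemokine removal. What the arrays measure is transcript, not chemokine protein.

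The probe set for Ackr2 itself did not separate the genotypes. It read 6.74, 6.75 and 6.92 on the D6 arrays, against 6.97, 6.91 and 6.83 on the FVB arrays. The groups overlapped, and the difference was -0.10 ± 0.08 (SE). Both groups lay close above 5.93, the level below which 95% of 1027 olfactory receptor genes fell and which is used here as background. Where the probes lie relative to the deleted sequence is not known from the sources used here, so this gene does not check the labels.

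Kidney markers were bright on every array. The 11 segment markers, such as Lrp2, Umod and Aqp2, read between 8.21 and 13.8 on all 6 arrays. Xist read between 12.5 and 12.9, and 3 Y-linked genes stayed at or under 5.24. The arrays of D6 and FVB mice correlated with each other across 16480 genes as closely (r between 0.991 and 0.994 over 9 pairs) as arrays of the same group did (r between 0.991 and 0.993 over 6 pairs). On the first principal component, which held 25.3% of the variance of the 6 arrays, D6 replicate 1 stood apart at -16.9, FVB replicate 1 lay at -6.86, and the other 4 lay between 4.06 and 7.45.

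Few transcripts passed the test between the genotypes. Slc6a20b and Lars2 fell in D6 kidneys and no gene rose, so 2 of 16480 tested genes, or 0.0121%, passed an adjusted p of 0.05 in limma with Benjamini-Hochberg adjustment. At an unadjusted p under 0.05, 355 genes (2.15%) were higher and 275 (1.67%) lower in D6, together 3.82% of those tested. All 3 D6 arrays lay above all 3 FVB arrays for 5.59% of genes and below them for 4.2%, together 9.79%.

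Both called genes lie close together on chromosome 9, the chromosome of Ackr2. Slc6a20b encodes a member of the sodium- and chloride-dependent transporter family, related to the proline and imino acid carrier of the kidney and gut. It was among the brighter genes, with 11.25, 11.23 and 11.26 on the D6 arrays, against 12.57, 12.43 and 12.59 on the FVB arrays. The D6 mean was 11.24 ± 0.01 and the FVB mean 12.53 ± 0.08 (SD, n = 3 each), and no arrays overlapped. The difference was -1.29 ± 0.09 (SE), which is 2.44-fold lower in D6, with a limma adjusted p of 6.35e-05.

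Lars2 encodes the mitochondrial leucyl-tRNA synthetase, which loads leucine onto its tRNA for protein synthesis inside mitochondria. Its values were 7.69, 7.53 and 7.58 on the D6 arrays, against 8.41, 8.30 and 8.52 on the FVB arrays. Every D6 array lay below every FVB array, and the difference was -0.81 ± 0.09, or 1.75-fold lower in D6, with a limma adjusted p of 0.00436. With the D6 and FVB arrays alone in the fit, Lars2 no longer passed (adjusted p 0.0672).

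In the order of tested genes, Lars2 is the 21st and Slc6a20b the 24th gene after Ackr2, and the array tested 30 genes beyond Ackr2 before the chromosome ended. Sacm1l, which encodes a phosphoinositide phosphatase of the endoplasmic reticulum and Golgi, is the gene just before Slc6a20b. Sacm1l read 9.47, 9.58 and 9.61 on the D6 arrays, against 10.08, 10.01 and 10.17 on the FVB arrays, a difference of -0.53 ± 0.09 with no overlap. It did not pass (limma adjusted p 0.149). Fyco1, which links autophagosomes to microtubule motors, is the 27th gene and was chosen for mention after its values were seen. It read 9.0, 9.13 and 9.10 on the D6 arrays, against 9.34, 9.32 and 9.52 on the FVB arrays, and did not pass either (limma adjusted p 1.0).

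Slc6a20a lies next to Slc6a20b and encodes the kidney's proline and imino acid carrier. It ran the other way, with 10.48, 10.40 and 10.71 on the D6 arrays, against 10.00, 9.95 and 9.95 on the FVB arrays. All 3 D6 arrays were above, by 0.57 ± 0.13, and the gene did not pass (limma adjusted p 0.888). The genes are close paralogs, with 1 probe set each, and whether either probe set also reads transcripts of the other was not tested. The sum of both transporters can therefore not be given from these values.

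Limd1 and Lztfl1, which stand between these genes, overlapped between the groups, with differences of -0.07 and -0.13. Of the 7 genes from the 21st to the 27th after Ackr2, 5 did not overlap, or 71.4%, against 9.79% of all genes tested. These genes were marked out after their values were seen, so the share describes them and is not tested. Nearer to Ackr2 no such run appeared. Of the 10 tested genes on each side, 3 of 20 did not overlap (15%), none passed and their differences lay between -0.19 and 0.20. The 3 were Higd1a at -0.19, Zfp651 at -0.10 and Cyp8b1 at 0.13, the last with both group means under the background level.

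The bases before the start sites of the 3 transporter and synthetase genes are shown because the genes are near neighbours whose differences have opposite signs. Each run is the 250 bases before the start in RefSeq on GRCm38.p6, 5′ to 3′ on the gene's own strand, with GC boxes (GGGCGG or its reverse complement) and the core of an HNF1 site (GTTAAT) in capitals. Slc6a20b lies at chr9:123632539-123632788 on the minus strand, Slc6a20a at chr9:123678833-123679082 on the minus strand and Lars2 at chr9:123366677-123366926 on the plus strand.
Slc6a20b: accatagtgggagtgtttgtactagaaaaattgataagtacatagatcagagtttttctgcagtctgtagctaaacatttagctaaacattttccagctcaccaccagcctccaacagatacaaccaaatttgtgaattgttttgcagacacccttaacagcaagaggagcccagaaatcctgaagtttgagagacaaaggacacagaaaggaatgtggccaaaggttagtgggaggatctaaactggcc
Slc6a20a: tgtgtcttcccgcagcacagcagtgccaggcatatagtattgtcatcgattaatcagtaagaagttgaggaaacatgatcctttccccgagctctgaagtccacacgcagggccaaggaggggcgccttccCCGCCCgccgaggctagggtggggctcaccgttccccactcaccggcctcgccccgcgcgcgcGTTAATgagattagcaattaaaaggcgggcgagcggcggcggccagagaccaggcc
Lars2: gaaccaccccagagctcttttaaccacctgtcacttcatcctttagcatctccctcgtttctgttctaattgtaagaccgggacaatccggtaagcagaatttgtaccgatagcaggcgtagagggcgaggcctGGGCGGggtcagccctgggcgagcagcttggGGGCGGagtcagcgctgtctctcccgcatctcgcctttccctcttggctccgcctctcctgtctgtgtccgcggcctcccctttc
The base composition differs between the paralogs. The Slc6a20b run holds 0 CpG pairs and 41.6% G and C, and none of the motifs searched on both strands. The Slc6a20a run holds 21 CpG pairs and 61.2% G and C, with a GC box 119 bases and GTTAAT 56 bases before the start. The Lars2 run holds 15 CpG pairs and 59.2% G and C, with GC boxes 116 and 85 bases before the start. Over 32851 mouse promoters of the same length the median was 6 CpG pairs and 52.4% G and C. A GC box was present in 32.7% of them and GTTAAT in 6.4%, and the other motifs searched were TATAAA in 12.4%, CCAAT in 33.8% and CACGTG in 6.0%. A match describes letters alone.

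**Figure D1:**
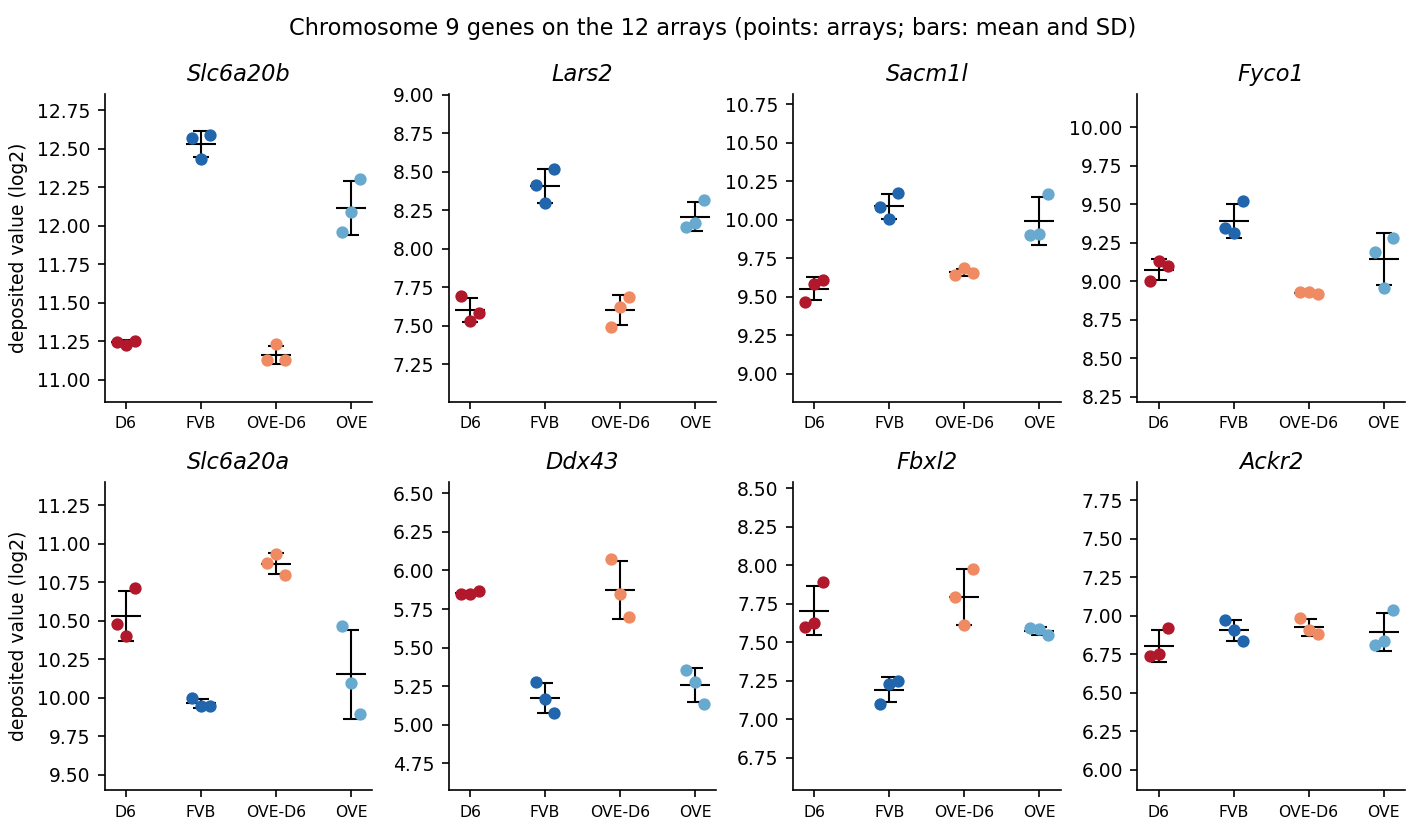
Deposited log2 values of 8 chromosome 9 genes on the 3 arrays of each group (points), with the mean and SD (bars), each panel spanning 2 log2 units. Slc6a20b, Lars2, Sacm1l and Fyco1 lie lower in D6 and OVE-D6 than in FVB and OVE, Slc6a20a, Ddx43 and Fbxl2 lie higher, and Ackr2 overlaps between D6 and FVB.

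The OVE-D6 and OVE arrays, which share no array with the D6 and FVB arrays, showed the same run of differences. OVE-D6 mice descend from D6 mice, so both comparisons carry the same allele. Slc6a20b differed by -0.95 ± 0.09 between OVE-D6 and OVE (limma adjusted p 0.00196), and Lars2 by -0.61 ± 0.09 (adjusted p 0.0356). Slc6a20a was higher by 0.72 ± 0.13 in OVE-D6 (adjusted p 0.0457). With the OVE-D6 and OVE arrays alone in the fit no gene passed, so all of these calls were lost. Sacm1l at -0.33 and Fyco1 at -0.22 did not pass, although no arrays overlapped, as for 17.6% of all genes in that comparison. All 5 genes that did not overlap between D6 and FVB in this run thus lay on the same side of OVE in OVE-D6. Over all tested genes the knockout arrays lay above on every array in both disease states for 77 genes (0.467%) and below for 49 (0.297%). The difference between the genotype effects in the 2 disease states did not pass for any of these genes (limma interaction, adjusted p 0.41 for Slc6a20b and 0.64 for Lars2).

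Further along the chromosome, Ddx43 and Fbxl2 also had an unadjusted p under 0.001. Ddx43, a DEAD-box RNA helicase gene best known from germ cells and tumours, lies 347 tested genes before Ackr2. It read 5.85, 5.85 and 5.87 on the D6 arrays, against 5.27, 5.17 and 5.08 on the FVB arrays, all under the background level. The difference of 0.68 ± 0.10 did not pass (limma adjusted p 0.0699), while in OVE-D6 against OVE it was 0.62 and did (adjusted p 0.0393), though not with the OVE-D6 and OVE arrays alone in the fit. Fbxl2, which encodes a substrate-recognising part of a ubiquitin ligase, lies 69 tested genes before Ackr2. It read 7.60, 7.63 and 7.89 on the D6 arrays, against 7.10, 7.23 and 7.25 on the FVB arrays, and did not pass (limma adjusted p 0.573). Over chromosome 9 as a whole, 97 of 934 genes did not overlap (10.4%), against 9.76% of 15546 genes elsewhere. A difference carried by sequence that came with the deletion and one that follows from the loss of D6 cannot be told apart in this design.

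**Figure D2:**
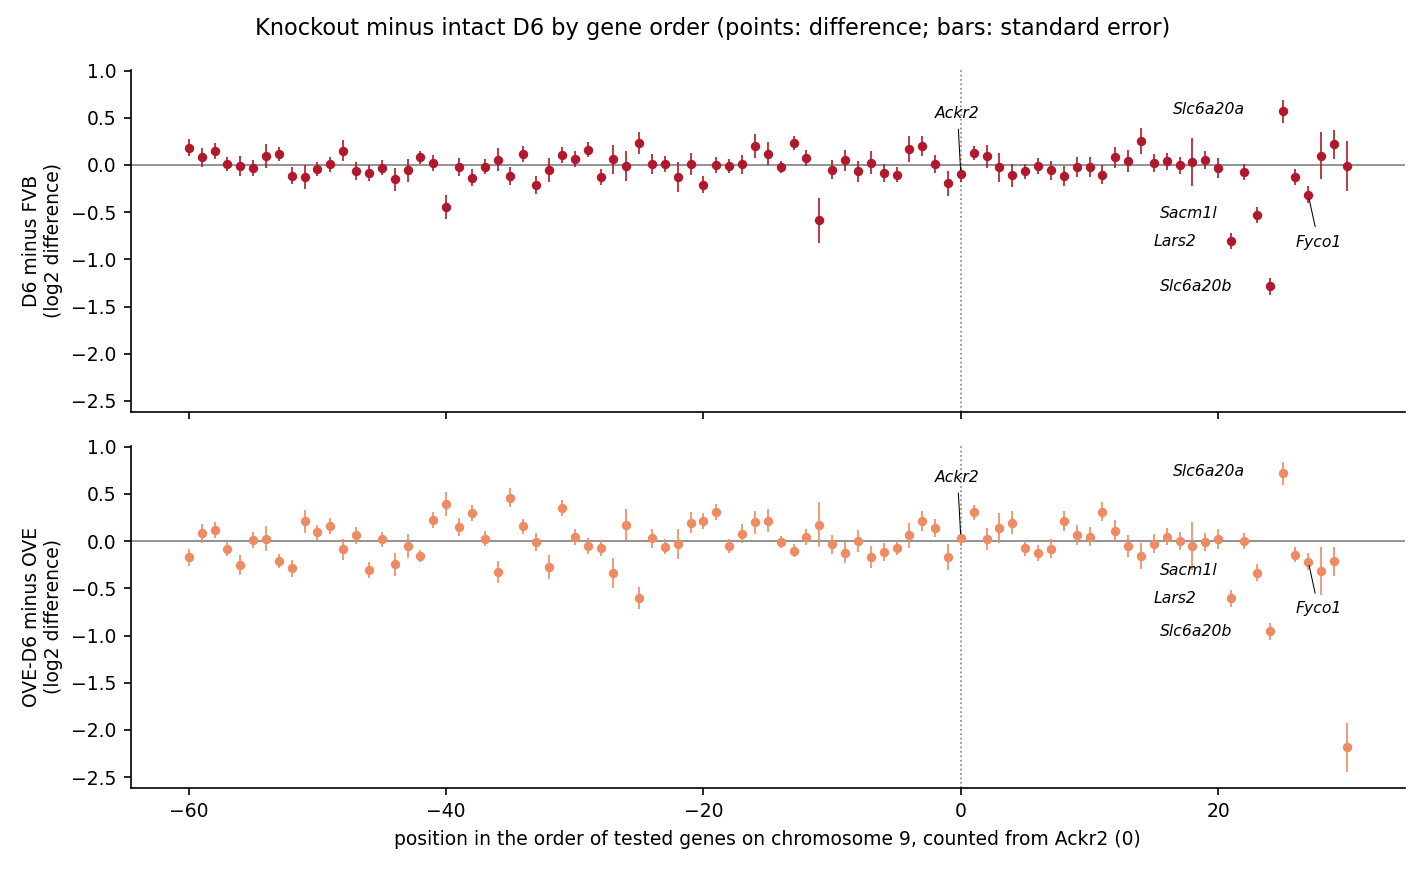
Log2 difference and standard error of the tested genes from 60 before to 30 after Ackr2 on chromosome 9, by their place in the gene order, for D6 minus FVB (top) and OVE-D6 minus OVE (bottom). The genes nearest to Ackr2 scatter about 0 in D6 minus FVB, while Lars2, Sacm1l, Slc6a20b and Slc6a20a stand off the line in both panels, and the lowest point of the lower panel, Ccr2 as the 30th gene, is at -0.01 in the upper one.

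No relative of the called genes passed. Of 20 tested transporters of neutral and other amino acids, Slc6a20b was called lower and no other member was called. The list median was 0.02, against 0.0039 over all genes tested. Slc7a8, a light chain of the basolateral exchanger of large neutral amino acids, read 12.47, 12.34 and 12.43 on the D6 arrays, against 11.81, 12.08 and 12.20 on the FVB arrays (difference 0.38 ± 0.14, limma adjusted p 1.0). Slc7a7, the partner light chain for cationic amino acids, differed by 0.24 ± 0.10. Of 16 mitochondrial aminoacyl-tRNA synthetases, Lars2 was called lower, 7 differences were positive and 9 negative, and the median was -0.04. Pars2, the prolyl enzyme, read 6.99, 6.92 and 6.80 on the D6 arrays, against 7.02, 7.14 and 7.34 on the FVB arrays, which did not overlap but did not pass. The genes of the respiratory chain, part of which is made inside mitochondria, had a median of 0.03 over 25 tested members and none was called.

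Chemokines bound by D6 were slightly brighter in D6 kidneys, and none passed. The 8 tested of 10 listed ligands all had positive differences, with a median of 0.26, where 51.4% of all genes had positive ones, and 3 of the 8 lay above on every D6 array, where 5.59% of all genes did. Averaged over the 8 genes and set to the FVB mean, the arrays lay at 0.28, 0.26 and 0.16 in D6, against -0.07, 0.10 and -0.03 in FVB. Ccl8 and Ccl12 were too dim to test. Their joint direction carries no test here.

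Ccl2, the main chemoattractant for monocytes, read 6.36, 6.37 and 6.05 on the D6 arrays, against 5.73, 6.02 and 5.90 on the FVB arrays. The FVB mean of Ccl2, 5.88, lay under the background level. Its difference was 0.38 ± 0.32 and did not pass (limma adjusted p 1.0). That error is pooled over the 4 groups, and the SD was 0.18 in D6 and 0.14 in FVB but 0.90 in OVE. It is therefore wider than the spread of the D6 and FVB arrays. Ccl2 did not pass under any alternative run (lowest limma adjusted p 0.881). Ccl7, a related monocyte chemokine, read 6.67, 6.36 and 6.41 on the D6 arrays, against 6.06, 6.33 and 6.15 on the FVB arrays. Ccl5, which draws T cells and monocytes, was the brightest of the 8, with 7.97, 8.28 and 7.71 on the D6 arrays, against 7.57, 7.65 and 7.57 on the FVB arrays. These 3 were the ones whose D6 arrays all lay above the FVB arrays. Ccl22 and Ccl17, which act on CCR4, differed by 0.28 ± 0.13 and 0.22 ± 0.23, and Ccl3, a macrophage inflammatory protein, by 0.25 ± 0.18. The FVB mean of Ccl22, 5.92, was also under the background level. Ccl4 at 0.03 ± 0.09 and Ccl11, the eosinophil chemokine, at 0.01 ± 0.13 were near 0, and the sign of both depended on which array was left out.

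Chemokines that D6 is not known to take up were also examined. Of 9 other CC chemokines, 4 differences were positive and the median was -0.02. With a stricter filter (the 50th percentile on 3 or more of the 12 arrays) it was 0.35. The scavenged list, with fewer members left, then had 0.38. Ccl2 and Ccl17 passed that filter only through the OVE arrays. Ccl2 read 6.05 to 6.37 on the D6 arrays, 5.73 to 6.02 on the FVB arrays and 7.16 to 8.82 on the OVE arrays. These medians therefore do not stand for genes that are bright in D6 and FVB. The list mean of the other CC chemokines lay above FVB on every D6 array, though narrowly, with 0.03, 0.17 and 0.23, against -0.0046, -0.02 and 0.026. With 1 array left out their median was -0.08 to 0.04, against 0.21 to 0.31 for the scavenged list. Whether the scavenged ligands differ from the other CC chemokines was not tested. Ccl6 lay above on all 3 D6 arrays, with 6.87, 6.94 and 7.31, against 6.63, 6.62 and 6.66 on the FVB arrays (0.40 ± 0.27). Ccl28 read 6.97, 8.16 and 8.68 on the D6 arrays, against 7.66, 6.75 and 7.32 on the FVB arrays, so the single D6 arrays disagreed more than the groups did. Ccl19, which guides cells along lymph vessels, differed by 0.35 ± 0.30, and Ccl20 by -0.18 ± 0.13.

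Of 14 chemokines of the CXC, CX3C and XC classes, 11 differences were positive, with a median of 0.07. Where 5.59% of all genes lay above on every D6 array, 4 of the 14 did. These 4 were the interferon-inducible CXCR3 ligands and Cxcl16. Cxcl9 read 6.80, 6.94 and 6.63 on the D6 arrays, against 6.40, 6.12 and 6.03 on the FVB arrays. Cxcl10 read 7.58, 7.30 and 6.72 on the D6 arrays, against 6.58, 6.60 and 6.32 on the FVB arrays. Cxcl11 read 6.24, 6.23 and 6.24 on the D6 arrays, against 5.86, 5.50 and 5.94 on the FVB arrays, whose mean lay under the background level. These 3 were among the wider gaps of the chemokine lists, at 0.61 ± 0.33, 0.70 ± 0.35 and 0.47 ± 0.16, yet none passed (limma adjusted p 1.0 each). Cxcl16, the membrane-bound scavenger receptor and ligand of CXCR6, differed by 0.36 ± 0.13. Ppbp, platelet basic protein, named after its values were seen, was the only one of the 14 below on every D6 array, with 7.54, 7.27 and 7.82, against 7.86, 8.86 and 8.17 on the FVB arrays. The receptor of the CXCR3 ligands, Cxcr3, overlapped between the groups with 0.11 ± 0.12.

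Among chemokine receptors little differed. Of 18 signalling receptors 9 were bright enough to test, 7 differences were positive, the median was 0.06 and all 9 overlapped. Cx3cr1, the fractalkine receptor of resident macrophages and monocytes, differed by 0.23 ± 0.12. The other atypical receptors differed by less than their errors can tell from 0. Ackr3, the scavenger of CXCL12, differed by 0.04 ± 0.16, Ackr4, the scavenger of the homeostatic CC chemokines, by -0.00 ± 0.08 near background, and Ccrl2, which presents chemerin, by 0.13 ± 0.10. Each of these overlapped and Ackr1 was too dim to test.

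Markers of macrophages and monocytes leaned towards D6 as a group. All 23 tested markers had positive differences, with a median of 0.36, and 12 of the 23 lay above on every D6 array, where 5.59% of all genes did. None passed. The list mean was 0.37, 0.50 and 0.22 on the D6 arrays, against 0.17, -0.09 and -0.08 on the FVB arrays, so the groups did not overlap but the lowest D6 array came within 0.05 of the highest FVB array. In whole kidney, more macrophages and more transcript per macrophage cannot be told apart.

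Lyz2, lysozyme of macrophages and neutrophils, had the widest gap of the list, with 9.29, 9.86 and 9.63 on the D6 arrays, against 9.08, 8.75 and 8.47 on the FVB arrays. Its difference of 0.82 ± 0.34 corresponds to 1.77-fold and did not pass (limma adjusted p 1.0). Adgre1, which encodes the macrophage antigen F4/80, read 7.26, 7.58 and 6.70 on the D6 arrays, against 7.10, 6.20 and 6.41 on the FVB arrays, and overlapped. Cd68, a lysosomal glycoprotein of macrophages, read 7.41, 7.20 and 7.32 on the D6 arrays, against 7.03, 6.83 and 6.96 on the FVB arrays, with no overlap. Csf1r, the receptor that macrophages need to survive, hardly differed (0.14 ± 0.18), whereas its ligand Csf1 lay above on every D6 array (0.28 ± 0.13). Msr1 and Fcgr1, a scavenger receptor and an Fc receptor, differed by 0.32 ± 0.15 and 0.36 ± 0.19, but Msr1 lay under the background level in both groups and Fcgr1 in FVB, so these sizes are uncertain. Of the 23 markers, 4 had both group means under background.

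Antigen presentation leaned the same way. All 9 tested genes of MHC class II presentation had positive differences with a median of 0.32. Of these, 4 lay above on every D6 array, where 5.59% of all genes did. Cd74, the invariant chain, read 11.36, 10.78 and 10.08 on the D6 arrays, against 10.34, 9.61 and 9.48 on the FVB arrays, a difference of 0.93 ± 0.42 with overlap. H2-Aa, a class II chain, read 8.61, 8.74 and 8.20 on the D6 arrays, against 8.08, 7.90 and 7.73 on the FVB arrays (0.61 ± 0.26). H2-DMa, which edits the bound peptide, differed by 0.70 ± 0.32 and H2-Oa, with both group means under the background level, by 0.29 ± 0.11. Of the 9 genes, 2 had both means under background, and with the 50th percentile filter the list median was 0.65. The spread within D6 was wide here, and the list means of 0.70, 0.53 and 0.17 on the D6 arrays reached below that of FVB replicate 1, at 0.19. All 8 genes of class I presentation also had positive differences (median 0.25), and all 8 overlapped.

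Other leukocyte lists were nearer to the rest of the genome. Of 10 dendritic cell genes 7 differences were positive (median 0.07). Irf8, a transcription factor of the mononuclear phagocyte lineage, read 9.08, 9.28 and 8.96 on the D6 arrays, against 8.89, 8.75 and 8.86 on the FVB arrays. Flt3 and Clec10a also lay above on every D6 array, by 0.32 and 0.44, with FVB means under the background level. Of 10 T and NK cell genes the median was 0.08 and 2 lay above on every D6 array, where 5.59% of all genes did. Zap70, at -0.14, was the 1 that lay below on every D6 array, where 4.2% of all genes did. Nkg7, a granule protein of cytotoxic cells, read 6.43, 6.59 and 6.49 on the D6 arrays, against 6.21, 6.04 and 5.96 on the FVB arrays, while Cd3e, part of the T cell receptor complex, overlapped (0.28 ± 0.17). B and plasma cell genes (median -0.02 over 8) and neutrophil genes (median -0.03 over 6) showed no lean.

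Of 7 mast cell genes 3 were bright enough to test. Tpsb2, a tryptase, read 6.03, 6.07 and 5.98 on the D6 arrays, against 5.79, 5.73 and 5.67 on the FVB arrays, and did not pass (limma adjusted p 0.888). The FVB mean of Tpsb2 lay under the background level. Cpa3, the mast cell carboxypeptidase, read 5.81, 6.24 and 6.10 on the D6 arrays, against 4.88, 5.96 and 5.29 on the FVB arrays, around the background level. Kit, the stem cell factor receptor, which kidney epithelium also expresses, differed by 0.01.

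The mean of the complement list varied little within each group. It was 0.19, 0.23 and 0.21 on the D6 arrays, against -0.03, 0.01 and 0.03 on the FVB arrays. Single genes could spread more, as C1ra and C3ar1 did in D6 (SD 0.32 and 0.31). Of the 11 differences 10 were positive, with a median of 0.19, and 4 genes lay above on every D6 array, where 5.59% of all genes did. C4b, of the classical pathway, read 7.46, 7.55 and 7.39 on the D6 arrays, against 6.86, 6.92 and 7.07 on the FVB arrays, a difference of 0.52 ± 0.21. C3ar1, a receptor for a complement fragment found on myeloid cells, read 8.0, 8.57 and 8.09 on the D6 arrays, against 7.88, 7.60 and 7.76 on the FVB arrays. C1ra and C5ar1 were also above on every D6 array, by 0.40 and 0.17, and none of the 4 passed (limma adjusted p 1.0 each).

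Of 12 genes of cytokines and NF-kappaB feedback 11 differences were positive, with a median of 0.12. Il33, an alarmin of stromal and epithelial cells, read 8.16, 8.04 and 8.36 on the D6 arrays, against 7.60, 7.81 and 7.85 on the FVB arrays (0.43 ± 0.17). Interferon-induced genes had a median of 0.02 over 14, and immediate early genes 0.10 over 14, with Jun at 0.48 ± 0.18 and Zfp36 at 0.26 ± 0.11, both overlapping.

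**Figure D3:**
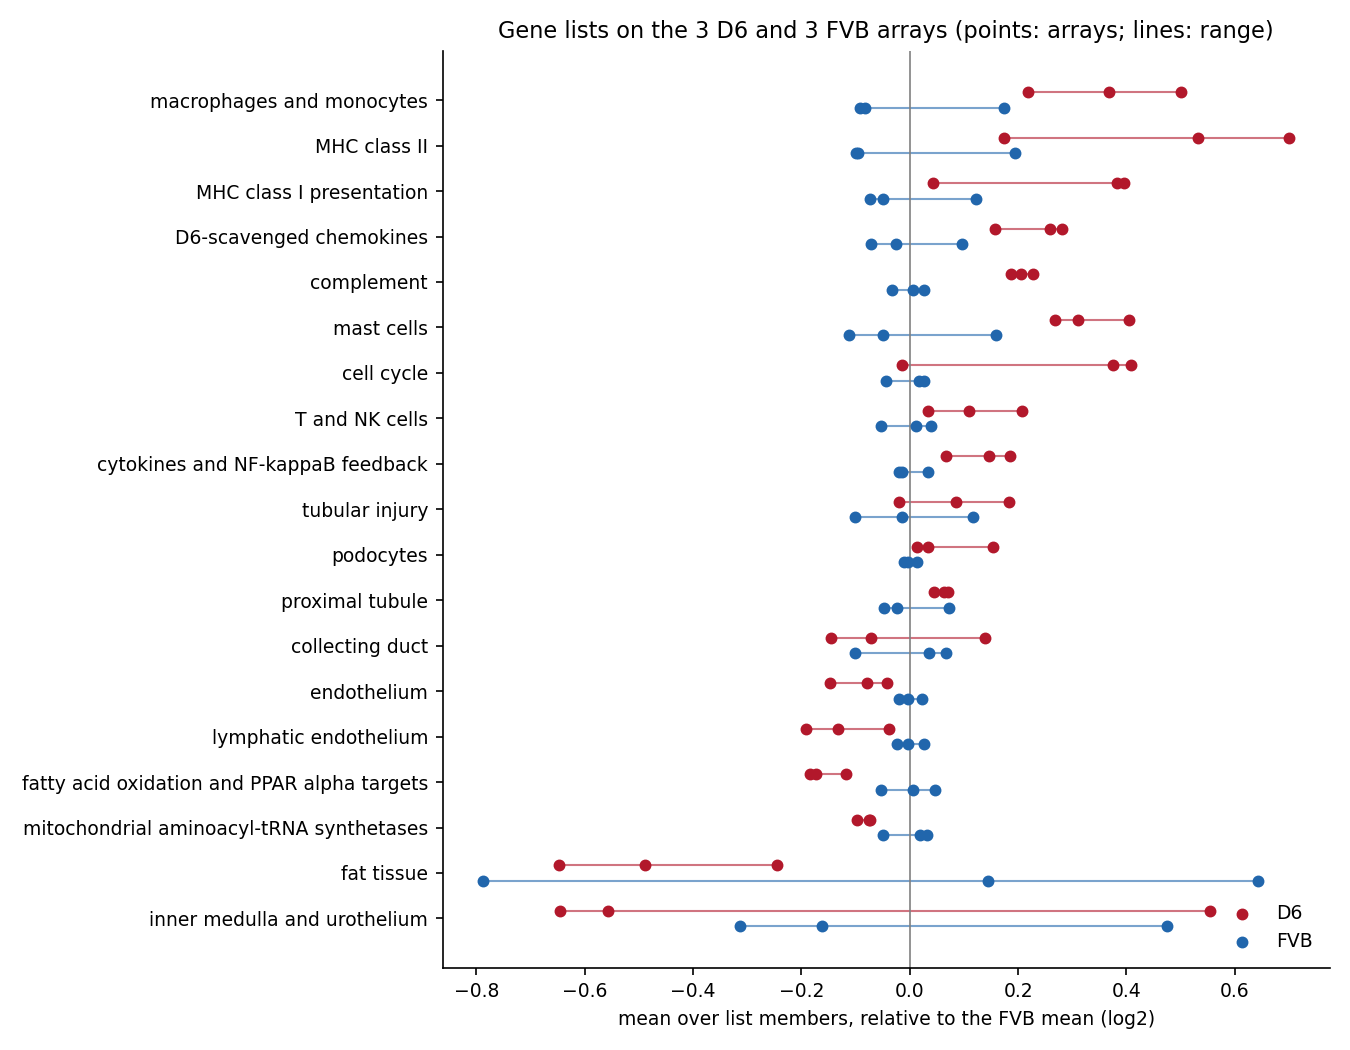
Mean log2 value of the members of 19 gene lists on each D6 and FVB array, relative to the FVB mean (points: arrays, lines: range of the group). The macrophage, complement, mast cell, scavenged chemokine, cytokine and podocyte lists lie above FVB on every D6 array, the last by a narrow margin. The fatty acid oxidation, endothelium, lymphatic endothelium and mitochondrial synthetase lists lie below. The fat and inner medulla lists spread more within a group than between groups.

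Genes of the cell cycle were another list with 1 direction. All 18 tested members had positive differences (median 0.27), and 2 lay above on every D6 array, where 5.59% of all genes did. Their list mean was 0.41, 0.37 and -0.01 on the D6 arrays, against 0.02, 0.03 and -0.04 on the FVB arrays, so D6 replicate 3 was with the FVB arrays. Mcm2, a helicase subunit that licenses replication, read 8.19, 8.08 and 7.79 on the D6 arrays, against 7.59, 7.63 and 7.82 on the FVB arrays. Mcm6 followed the same arrays, with 6.66, 6.61 and 5.91 in D6, against 5.94, 5.99 and 5.85 in FVB, and Ccnb2, a cyclin of mitosis, differed by 0.44 ± 0.23.

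Genes of tubular injury and of extracellular matrix did not separate the groups. Of 16 injury genes 12 differences were positive and the median was 0.07. Where 5.59% of all genes lay above on every D6 array, 2 of the 16 did. These were Clu, a secreted chaperone, with 10.12, 10.25 and 10.36 on the D6 arrays, against 9.91, 9.81 and 9.87 on the FVB arrays, and Timp1 with 5.87, 6.07 and 5.97, against 5.75, 5.6 and 5.78. The FVB values of Timp1 all lay under the background level. Lcn2, the tubular injury marker NGAL, read 7.63, 6.71 and 7.06 on the D6 arrays, against 6.74, 6.94 and 6.54 on the FVB arrays, and overlapped. Of 27 matrix genes 20 differences were positive with a median of 0.07. Tgfbi, a matrix protein induced by TGF-beta, lay above on every D6 array (0.25 ± 0.10), and Dcn, a small proteoglycan, overlapped at 0.41 ± 0.20.

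Differences of nephron genes were small. Podocyte genes had 12 of 13 positive differences with a median of 0.05. Their list mean was 0.0136, 0.15 and 0.03 on the D6 arrays, against -0.01, -0.0028 and 0.013 on the FVB arrays. The groups thus only just did not overlap. The median was 0.05 over 25 proximal tubule genes, 0.01 over 14 genes of thick limb and distal convoluted tubule and 0.02 over 15 of collecting duct, and no member of these 4 lists passed. Nphs1 and Podxl, of the podocyte slit and surface, lay above on every D6 array by 0.14 ± 0.13 and 0.11 ± 0.09. Slc5a2, the glucose carrier SGLT2 of the early proximal tubule, read 11.54, 11.34 and 11.12 on the D6 arrays, against 10.88, 10.97 and 11.19 on the FVB arrays. Slc22a12, the urate exchanger, lay below on every D6 array, by -0.25 ± 0.13.

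In the distal nephron, Calb1, the calcium-binding calbindin, read 12.32, 12.47 and 12.24 on the D6 arrays, against 11.96, 11.76 and 12.23 on the FVB arrays, which just did not overlap. Scnn1a, a subunit of the epithelial sodium channel, read 11.27, 11.21 and 11.13 on the D6 arrays, against 11.03, 10.98 and 10.89 on the FVB arrays (0.23 ± 0.07). Aqp4, a basolateral water channel of the collecting duct, lay below, with 8.32, 8.28 and 8.45 on the D6 arrays, against 8.62, 9.14 and 8.58 on the FVB arrays. None of these passed (limma adjusted p 1.0 each).

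Vascular genes leaned the other way from the leukocyte genes. Of 16 endothelial genes 14 differences were negative, with a median of -0.10, and 2 lay below on every D6 array, where 4.2% of all genes did. Vwf, the clotting protein stored in endothelial cells, read 6.81, 6.75 and 6.68 on the D6 arrays, against 6.9, 7.15 and 6.87 on the FVB arrays, and Nos3, endothelial nitric oxide synthase, read 7.13, 7.22 and 7.22, against 7.42, 7.44 and 7.27. Lymphatic endothelium, where D6 is best known, had 6 of 8 negative differences and a median of -0.10. Of its markers, Flt4, the receptor for VEGF-C, differed by -0.11 ± 0.10 with no overlap, Prox1, which kidney tubules also express, by -0.32 ± 0.27, and Lyve1 by 0.03 ± 0.13. Mesangial, pericyte and smooth muscle genes had a median of 0.03 over 13, and Rgs5, a pericyte gene, read 9.80, 9.55 and 9.78 on the D6 arrays, against 10.06, 10.08 and 9.89 on the FVB arrays (-0.30 ± 0.09).

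Genes of fatty acid oxidation and targets of the nuclear receptor PPAR alpha had mostly negative differences. Of 22 tested members 18 differences were negative, with a median of -0.13, and 5 lay below on every D6 array, where 4.2% of all genes did. The list mean was -0.12, -0.17 and -0.18 on the D6 arrays, against 0.01, 0.05 and -0.05 on the FVB arrays. None passed. Pdk4, the kinase that turns off pyruvate dehydrogenase, read 8.99, 8.42 and 8.49 on the D6 arrays, against 9.31, 9.96 and 9.12 on the FVB arrays, a difference of -0.83 ± 0.24. Acaa1b, a peroxisomal thiolase gene that lies 40 tested genes before Ackr2, read 8.69, 8.64 and 8.38, against 8.89, 9.20 and 8.95. Decr1, a mitochondrial reductase of unsaturated fatty acids, differed by -0.19 ± 0.07, and Cd36, a fatty acid carrier, by -0.34 ± 0.15.

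Fat tissue markers differed between mice more than between groups. Of 12 tested, 11 differences were negative with a median of -0.35, and their list mean was -0.65, -0.49 and -0.24 on the D6 arrays, against -0.79, 0.64 and 0.14 on the FVB arrays. Ucp1, the uncoupling protein of brown fat, read 5.34, 5.95 and 7.02 on the D6 arrays, against 4.86, 10.09 and 8.29 on the FVB arrays. Cidea, Plin1 and Adipoq followed the same FVB arrays, with FVB replicate 1 at 4.9, 6.53 and 4.28 and FVB replicate 2 at 7.18, 8.29 and 6.92. Fabp4, which endothelium also expresses, was the exception among these, with 9.0, 8.95 and 9.38 on the D6 arrays, against 9.54, 10.33 and 9.54 on the FVB arrays (-0.69 ± 0.20, no overlap, limma adjusted p 1.0). Pdk4 was highest on FVB replicate 2, the array with the brightest fat markers, and its difference was -0.58 without that array. On FVB replicate 1, the array with the dimmest fat markers of FVB, Pdk4 also lay above every D6 array. The part of fat tissue in the lower oxidation genes was not tested. Genes of cholesterol and fatty acid synthesis had a median of 0.07 over 17, and Insig1, a feedback regulator of that pathway, lay above on every D6 array (0.28 ± 0.12).

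**Figure D4:**
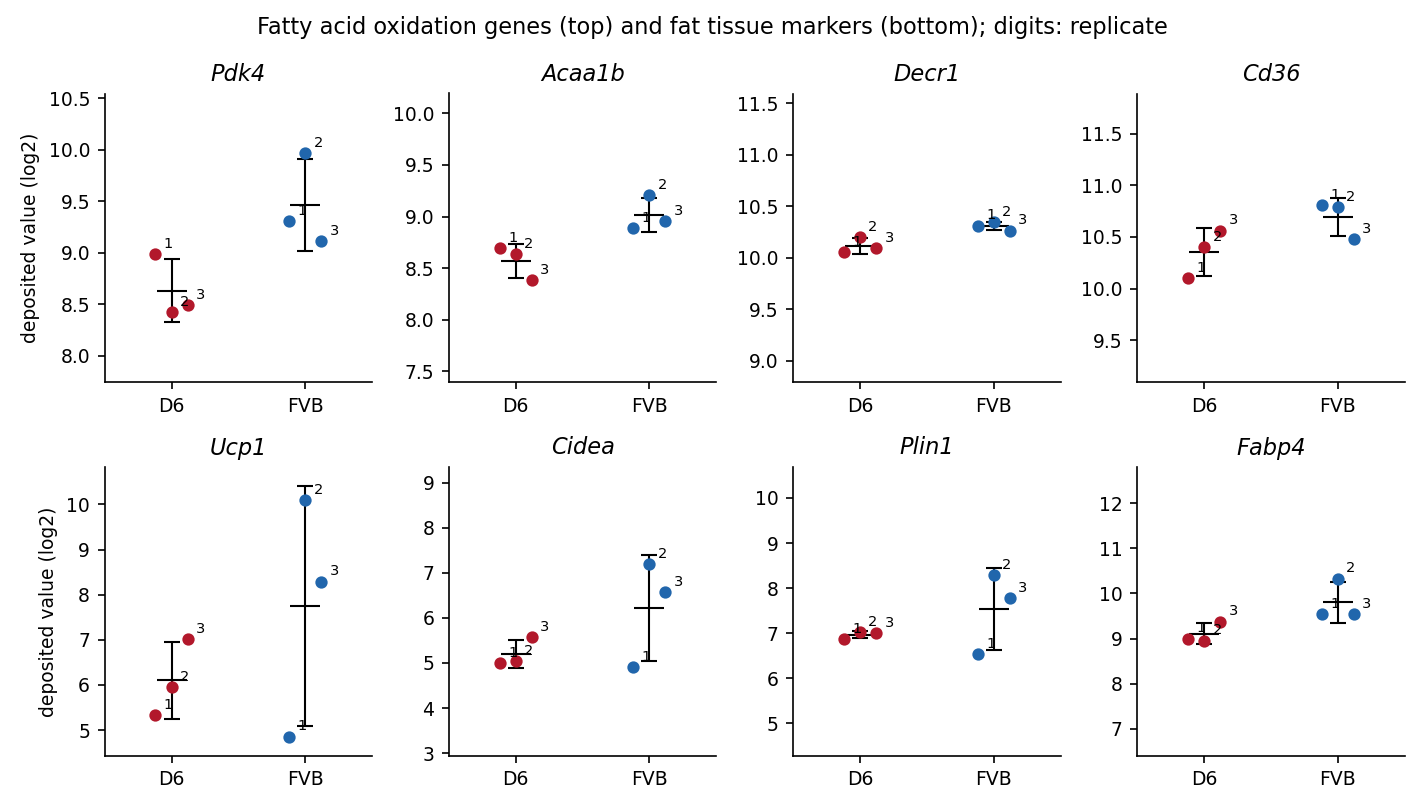
Deposited log2 values of 4 fatty acid oxidation genes (top, panels of 2.8 log2 units) and 4 fat tissue markers (bottom, panels of 6.4 log2 units) on the D6 and FVB arrays, with the mean and SD as bars and the replicate number beside each point. Pdk4, Acaa1b and Decr1 do not overlap between the groups, while Ucp1, Cidea and Plin1 are lowest on FVB replicate 1 and highest on FVB replicate 2.

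Genes of inner medulla and urothelium also differed between mice. The 8 listed, after values had been seen, had list means of 0.55, -0.56 and -0.65 on the D6 arrays, against -0.31, 0.48 and -0.16 on the FVB arrays. Upk1b, a urothelial plaque protein, read 7.81, 6.46 and 5.95 on the D6 arrays, against 6.76, 7.86 and 7.72 on the FVB arrays, and Upk1a went with it. D6 replicate 1, at -16.9 on the first principal component, was the D6 array with the most of this signal. FVB replicate 2, with a list mean nearly as high, lay at 5.91 on that component. D6 replicate 1 also had the lowest median of the arrays, at 6.84. Whether this signal or that median set D6 replicate 1 apart was not tested. Of the remaining lists, clock genes had a median of -0.02 over 13 and adrenal genes -0.02 over 7, while the 3 tested blood genes were all negative (median -0.10). Genes that differ between male and female kidneys had a median of -0.10 over 11, in which Slc22a30 and Slc22a26, of the organic anion transporter family, lay below on every D6 array by -0.92 ± 0.27 and -0.88 ± 0.30.

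Outside chromosome 9 and the lists, the genes with the smallest p were spread over many functions and none passed. Camk1g, a calmodulin-dependent kinase, was higher on every D6 array, with 7.34, 7.15 and 7.10 in D6, against 6.58, 6.29 and 6.78 in FVB (0.65 ± 0.12, limma adjusted p 0.457). Sectm1b, a secreted and membrane-bound protein of immune and epithelial cells, read 10.36, 10.35 and 10.37 on the D6 arrays, against 9.70, 9.77 and 10.05 on the FVB arrays (0.52 ± 0.10, adjusted p 0.516). Fam83g, Padi2, Klk1b24, Wnt2b and Pacc1 were also higher on every D6 array, and differed by 0.40, 0.38, 0.58, 0.41 and 0.41. The FVB mean of Wnt2b lay just under the background level.

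Cyp27b1 and S100g were also among these genes. Cyp27b1, the renal enzyme that makes active vitamin D, read 7.51, 7.09 and 7.07 on the D6 arrays, against 6.27, 6.31 and 6.39 on the FVB arrays, a difference of 0.90 ± 0.23 or 1.86-fold. S100g, the vitamin D-responsive calbindin of the distal tubule, read 10.41, 10.58 and 10.36 on the D6 arrays, against 9.73, 9.73 and 10.22 on the FVB arrays (0.56 ± 0.13). Both did not pass (limma adjusted p 1.0 each). Between OVE-D6 and OVE, Cyp27b1 differed by -0.94 and S100g by 0.03.

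Of the lower genes, Cytl1, a small secreted protein known from cartilage, read 6.56, 6.46 and 6.54 on the D6 arrays, against 6.99, 7.12 and 7.11 on the FVB arrays (-0.55 ± 0.10, limma adjusted p 0.457). Ralyl, an RNA-binding protein gene, differed by -0.52 ± 0.14 at the background level. Pnldc1, with its D6 mean under the background level, differed by -0.31. Rbm12b2, Med4, Erc2, Zfp111 and Rpl30 differed by -0.26, -0.29, -0.36, -0.34 and -0.32. Each of these genes had D6 arrays below all FVB arrays. A probe set under a microRNA gene's symbol was also among them and is given no value, since it cannot be assigned to a mature arm.

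Macrophage, complement and scavenged chemokine lists had medians of opposite sign in the 2 disease states. So did lists of other kinds, such as tubular injury (0.07 and -0.55), extracellular matrix (0.07 and -0.48) and the cell cycle (0.27 and -0.37). A change of sign of the median was thus not confined to immune genes. B and plasma cell genes (-0.02 and -0.22) and mast cell genes (0.30 and 0.05) were among the lists without it. The means of the injury, matrix and cell cycle lists overlapped between D6 and FVB, unlike those of the macrophage, complement and scavenged chemokine lists. Opposite on every array were 1 of 16 injury genes, 1 of 27 matrix genes and 0 of 18 cell cycle genes, against 0.661% of all genes. OVE-D6 against OVE called 38 genes (0.231%), 8 higher (0.0485%) and 30 lower (0.182%), and 14.8% had an unadjusted p under 0.05. This count was 0 with those 6 arrays alone in the fit and 1 to 668 with 1 array left out, the 1 without OVE-D6 replicate 1 or 2 and the 668 without OVE replicate 3. All 23 macrophage markers except Csf1r had negative differences between OVE-D6 and OVE, where 52.7% of all genes had positive ones, with a median of -1.04, while all 23 were positive in D6 against FVB, and 9 of the 23 were opposite on every array, where 109 of all tested genes (0.661%) were. The difference of Lyz2 was 0.82 ± 0.34 without diabetes and -1.93 ± 0.34 with it. The 8 scavenged chemokines had medians of 0.26 and -0.54, and complement genes 0.19 and -0.60. The fatty acid oxidation list had medians of -0.13 and 0.09. Over all genes, 55 (0.334%) were below in D6 and above in OVE-D6 on every array.

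The test of the difference itself did not single out any gene. The limma interaction called 0 of 16480 genes (0.0%) at an adjusted p of 0.05, and 1647 (9.99%) had an unadjusted p under 0.05. The smallest adjusted p among the genes named here was 0.17, shared by Lyz2 (interaction 2.76), Cyp27b1 (1.83), Csf1 (1.15), C5ar1 (0.91), Tgfbi (0.84) and Cytl1 (-0.82). This count hung on a single diabetic array. The macrophage list mean was -1.15, -1.0 and -0.96 on the OVE-D6 arrays, against 0.38, 0.34 and -0.71 on the OVE arrays, so OVE replicate 3 lay near OVE-D6. Without OVE replicate 3 the interaction called 377 genes, 353 of them positive, or 2.29% of genes tested. Among them were 21 of the 23 macrophage markers, 7 of 11 complement genes, 5 of 9 MHC class II genes, 3 of 9 other CC chemokines and 2 of 8 scavenged chemokines. OVE replicate 3 had the lowest mean of the OVE arrays in each of these lists, so leaving it out widens their interaction by construction. Their members among the 377 are therefore no separate evidence for it. No array of D6 or FVB had such weight, and the interaction called 0 or 1 gene without any of them. The 1 was Rps14 without D6 replicate 1, a gene named after its value was seen.

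**Figure D5:**
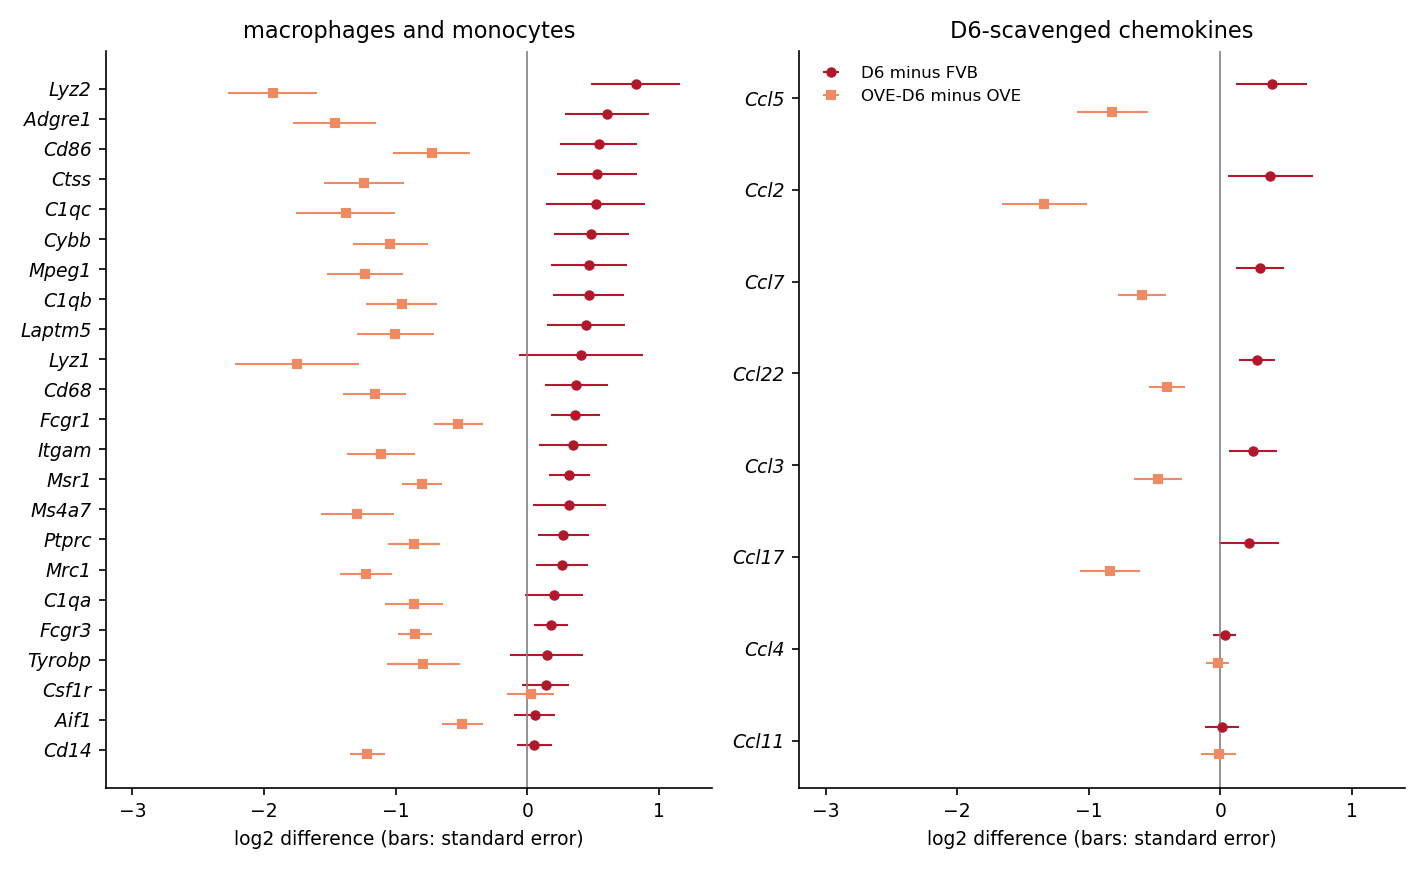
Log2 difference and standard error of each tested macrophage marker (left) and scavenged chemokine (right) for D6 minus FVB (circles) and OVE-D6 minus OVE (squares). All circles lie right of 0 and all squares but that of Csf1r lie left of it, with Ccl4 and Ccl11 within 0.05 of 0 in both.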

How the data were processed

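The authors deposited 1 log2 value per probe set and array, which were used as deposited. The array medians lay between 6.84 and 6.93. The lowest was that of D6 replicate 1, and the next was that of D6 replicate 3 at 6.89. After quantile normalization, or with arrays centred on their medians, the same 2 genes were called in D6 against FVB. Per the labels' protocols, whole-transcript kits were used to amplify and label the RNA for Affymetrix mouse gene arrays. The summarisation and normalisation method is not given in the sources used here. The table held 35556 probe sets. A single gene symbol belonged to 21789, more than one to 1621 and none here to 12146, after the platform annotation was updated through the GRCm38.p6 gene table, which gave names and gene order. Where a gene had more than 1 probe set (1001 genes), the brightest on average was used. Dim genes were left out: 16480 of 19936 exceeded the 25th percentile of the array on 3 or more arrays. Limma 3.58.1 (R 4.3.3) was fitted over all 12 arrays with group means, eBayes and Benjamini-Hochberg adjustment at 0.05 over all genes, for 3 comparisons. Errors of differences are limma standard errors, pooled over the 4 groups. For genes that spread more on the diabetic arrays they exceed the spread of the D6 and FVB arrays. The script was tested on simulated data.

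The 39 gene lists, their members and the comparison were chosen with earlier results of these data known, and lists are described by counts and medians with no test. The text names Ackr2, the called genes, the 12 higher and 12 lower genes of smallest p whose arrays do not overlap and whose higher group mean is above background (predicted genes left out), genes of chromosome 9 beside Ackr2 or with p under 0.001, up to 4 members of smallest p per list, and every member of some short lists. Csf1r, Cd68, Adgre1, Cd3e, Adipoq and Plin1 are named as cell type markers. Alternatives changed the threshold, the filter, the variance model, the scaling, how probe sets were combined and which arrays were fitted, or added the replicate number as a block. Plots used matplotlib 3.10.9 and pandas 2.3.3 under Python 3.11.15.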

Additional observations from a re-analysis of the deposited data

Results flagged for a closer look

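In 4 lists the mean over members lay above every FVB array on every D6 array and below every OVE array on every OVE-D6 array. The D6-scavenged chemokines had a mean of 0.23 in D6 relative to FVB and -0.56 in OVE-D6 relative to OVE. Macrophage and monocyte markers had 0.36 in D6 relative to FVB and -1.04 in OVE-D6 relative to OVE. Complement genes had 0.21 in D6 relative to FVB and -0.63 in OVE-D6 relative to OVE. Genes of cytokines and NF-kappaB feedback had 0.13 in D6 relative to FVB and -0.48 in OVE-D6 relative to OVE. The difference between disease states was not tested for these means. With 3 arrays a group, single arrays were not screened as outliers.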

How the results depend on the processing

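Slc6a20b was called lower in D6 under every alternative run, and Lars2 under every one except the fit on the D6 and FVB arrays alone, which called 1 gene (Slc6a20b). Array weights called 4 genes, adding Ddx43 and Sacm1l (adjusted p 0.0381 and 0.0416). The replicate block called 3, adding Ddx43. It called 7 genes in OVE-D6 against OVE and changed no call of the interaction, and the deviations of same-numbered D6 and FVB arrays correlated at only 0.12, 0.04 and 0.06, so the block stands for no known pairing. Leaving out 1 array at a time gave 2 to 3 calls. Rps14 was added without D6 replicate 1, Otop1 without FVB replicate 1, Ddx43 without OVE-D6 replicate 1 or 3, and Sacm1l without OVE replicate 3. The median of all genes stayed between -0.0026 and 0.0088 under all of them. OVE-D6 against OVE, with 38 calls, had 15 after quantile normalization, 0 with the OVE-D6 and OVE arrays alone in the fit (limma, 1975 at an unadjusted p under 0.05), 91 with array weights, 22 over every probe set and 151 at an adjusted p of 0.1, and 1 to 668 with 1 array left out, the highest without OVE replicate 3. The interaction called 0 to 377 with 1 array left out. The cause of these shifts was not tested. Genes near 0 changed sign with single arrays left out, with ranges of -0.1265 to 0.0048 for Limd1, -0.0141 to 0.1129 for Ccl4, -0.1473 to 0.1502 for Ccl11, -0.0523 to 0.134 for Ackr3, -0.0604 to 0.053 for Ackr4, -0.0408 to 0.0626 for Kit and -0.0837 to 0.1379 for Lyve1. The list medians with 1 array left out were 0.31 to 0.44 for macrophages, 0.30 to 0.44 for MHC class II, 0.21 to 0.31 for scavenged chemokines, 0.20 to 0.41 for the cell cycle, -0.16 to -0.10 for fatty acid oxidation and -0.69 to -0.19 for fat tissue. The filter at the 50th percentile, which leaves fewer members, gave medians of 0.65 for MHC class II, 0.38 for scavenged chemokines, 0.35 for other CC chemokines (-0.02 as reported), 0.19 for T and NK cells, -0.37 for blood and 0.01 for mast cells (0.30 as reported). That filter counts all 12 arrays, so a gene can pass it through the diabetic arrays alone, as Ccl2 and Ccl17 did. The number of arrays, 3 a group, limits the precision throughout.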
